A study of Mus musculus with 8 samples.

Results

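The cytosolic ribosomal protein genes were examined in RNA-seq counts from the livers of 8 mice, 5 WT and 3 Rbfox2 KO (KO), all given 30% (w/v) fructose in their water for 22 weeks. WT mice were Alb_cre- Rbfox2 LoxP/LoxP and Rbfox2 KO mice were Alb_cre+ Rbfox2 LoxP/LoxP, so the controls carry the same floxed alleles without the recombinase. The Cre is driven by the albumin promoter, which acts in hepatocytes, and the other cells of the liver keep the gene. The mice were on the C57BL6/J background, 8 weeks old when the diet began and fasted before the livers were taken. The genes were chosen by symbol and annotation, not by their values: protein-coding genes of GRCm38 named Rpl or Rps with a number, Rplp0 to Rplp2, and Rpsa. This gave 83 of 46078 genes in the table, 51 of the large and 32 of the small subunit. Of these, 81 passed the filter on low counts and were tested among 14654 genes. The 2 that did not pass were Rpl10l, with 0 counts in all 8 livers, and Rpl39l.

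The cytosolic ribosome is built from a small subunit, which reads the mRNA, and a large subunit, which joins the amino acids, each made of ribosomal RNA and of proteins that are mostly present in equal amounts. The mRNAs of these proteins belong to the terminal oligopyrimidine class, which opens with a C followed by a run of C and T, and their translation rises and falls together under mTORC1 and the binding protein LARP1. The liver makes large amounts of secreted protein and is rich in ribosomes.

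The defining letters of the class were sought around RefSeq transcription starts (GRCm38.p6). Windows reached from 250 bases before the start to 50 bases from the start on. By symbol, 63 of the 83 genes matched, with 75 windows among 32851 in all. The shares below rest on the symbol alone, without a check that each window lies at its gene. A C followed by at least 4 C or T on the transcribed-sense strand, opening within 5 bases of the start, was in 41.3% of the ribosomal protein windows and in 18.3% of all windows. With at least 7 C or T the shares were 28.0% and 4.37%. Both subunits had similar shares of the longer run, 28.3% of large and 27.6% of small subunit windows, while 2.67% of 75 windows of mitochondrial ribosomal protein genes held it. Searched on both strands, CGGAAG, the core of sites for ETS-family factors, was in 60.0% against 16.9% of all windows, and TCTCGCGA, an element found in promoters without a TATA box, in 16% against 0.995%. TATAAA, the letters of a TATA box, was in 9.33% against 13.6%. The windows of mitochondrial ribosomal protein genes held CGGAAG in 53.3%, TCTCGCGA in 1.33% and TATAAA in 6.67%. These 3 motifs cannot overlap one another. Stretches of 9 genes are printed because their genes carry the levels, correlations and differences that follow. Each runs from 15 bases before the annotated start to 15 bases from it on, and capitals mark the pyrimidine run where there is one within reach of the start.
Rps26, small subunit, chr10:128626492-128626521, minus strand: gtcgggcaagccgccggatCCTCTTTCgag
Rps24, small subunit, chr14:24490663-24490692, plus strand: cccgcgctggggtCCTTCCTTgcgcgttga
Rps2, small subunit, chr17:24720048-24720077, plus strand: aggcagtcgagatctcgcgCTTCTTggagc
Rpl22l1, large subunit, chr3:28805493-28805522, plus strand: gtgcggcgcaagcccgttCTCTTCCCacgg
Rps27l, small subunit, chr9:66946071-66946100, plus strand: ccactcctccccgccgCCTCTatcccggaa
Rpl41, large subunit, chr10:128549154-128549183, minus strand: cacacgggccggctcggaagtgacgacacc
Rps4x, small subunit, chrX:102189377-102189406, minus strand: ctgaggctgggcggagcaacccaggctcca
Rpl7l1, large subunit, chr17:46782642-46782671, minus strand: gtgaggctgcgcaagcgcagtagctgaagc
Rpl3l, large subunit, chr17:24727811-24727840, plus strand: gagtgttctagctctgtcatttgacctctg
Rps24, Rps27l and Rpl3l each have another window, not printed, further into the gene. No run within 5 bases says only that the letters are not at this annotated start, since the starts used in these livers were not measured.

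The members also share a compact gene structure. The shortest coding transcript of a member had a median of 681 bases, against 2581 in 12614 other tested protein-coding genes. A small nucleolar RNA gene, which guides modification of ribosomal RNA, lay inside 30 of the 83 genes (36.1%) and inside 174 of the others (1.38%). The members were spread over 19 chromosomes, with 14 on chromosome 7 and 4 on X. Rps2 (ENSMUSG00000044533, chromosome 17 from 24718116 to 24721929) and Rpl3l (ENSMUSG00000002500, chromosome 17 from 24727820 to 24736143) are neighbours on the plus strand, and their levels lay at opposite ends of the family.

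Sequence shared with other genes limits these counts. Of the 83 genes, 75 had a stretch of 100 bases that also occurs in transcripts of another gene, mostly processed copies, and the median share of the shortest coding transcript was 39.1%. In 32 genes it was over 50%, and in 9 it was 0. Non-member genes that share such a stretch held counts equal to 20.2% of the members' counts. How reads with several alignments were treated is not given in the sources used here, so the level of a member with much shared sequence is uncertain.

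Total counts ran from 24829693 to 37823155 per liver. Major urinary protein (Mup) genes, abundant in mouse liver, ranged from 6.71% (KO 1) to 35.5% (WT 3) of the counts, with the other 6 livers between 17.9 and 24.8%. Rbfox2 itself was at 18.9 ± 3.39 CPM over the WT livers (SD, n = 5) and 9.28 ± 2.84 CPM over the KO livers (SD, n = 3). Every KO liver was below every WT liver. Its log2 fold change was -1.03 ± 0.21 (SE, edgeR adjusted p = 0.328), so edgeR did not call the deleted gene. Summed hepatocyte markers were between 63654 and 78418 CPM in all 8 livers. Most of that sum was Alb, at 49124 to 61594 CPM, and single markers varied more. Cyp2e1 was at 2324 CPM in KO 1 and at 5164 to 6231 CPM elsewhere. Skeletal muscle markers summed to 186 CPM in WT 4, 261 in WT 5 and 166 in KO 1, against 1.10 to 35.9 in the other 5, with 0 of 7 markers at 0 in all livers. The sum of pancreatic acinar markers reached 441 CPM in KO 1 and was 4.78 to 16.8 elsewhere, with 0 of 11 at 0 in all livers.

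The family took between 1.24 and 1.79% of the counts of a liver. It held 1.58, 1.27, 1.25, 1.31 and 1.24% in WT livers 1 to 5 and 1.79, 1.45 and 1.25% in KO livers 1 to 3. The means were 1.33 ± 0.143% (SD, n = 5) and 1.499 ± 0.274% (SD, n = 3), and the groups overlapped. The highest share was in the liver with the fewest Mup counts. With Mup genes left out of the totals, the shares were 1.92, 1.62, 1.93, 1.74 and 1.51% in WT and 1.92, 1.89 and 1.67% in KO, with means of 1.74 ± 0.186% (SD, n = 5) and 1.83 ± 0.138% (SD, n = 3). The difference of KO minus WT, 0.171 percentage points, was 0.0236 without KO 1 and -0.0124 without the 3 livers with muscle transcripts. In bulk tissue, fewer cells of a type and less RNA per cell cannot be told apart.

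Per length, the median of the members lay far above that of all tested protein-coding genes, and the quartiles of the members lay close together. Levels are given here as CPM, the count scaled by library size and TMM factor, per kb of the shortest coding transcript, as the mean of 8 livers. The median of the 81 tested members was 229 CPM per kb, with quartiles of 177 and 299, against 3.59 for 12695 tested protein-coding genes. The large subunit had a median of 211 and the small subunit 250 CPM per kb.

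The highest levels per length were 608 CPM per kb for Rpl41, the smallest protein of the ribosome, and 486 for Rplp1, a protein of the stalk that recruits elongation factors. Rps2, at the mRNA entry site, had 450 CPM per kb and Rps24, a small subunit protein mutated in Diamond-Blackfan anaemia, had 427. In CPM, Rpl41 was at 343, 221, 284, 263 and 177 in WT livers 1 to 5 and at 298, 309 and 231 in KO livers 1 to 3. Neighbours in this order overlapped between livers. Of the shortest coding transcript of Rps2, 64.7% occurs in other genes, whose rows held 150% of its own counts.

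The lowest levels per length were those of Rpl3l, Rpl24, Rps20 and Rpl7l1. Rpl3l, the form of Rpl3 used in striated muscle, had 0.675 CPM per kb. Rpl24 had 5.15 CPM per kb, but 80.1% of its transcript is shared with 4 other genes whose rows held 362% of its counts. Rps20 had 34.9 CPM per kb over an annotated coding transcript of 3706 bases, and 92.3 to 163 CPM over the 8 livers. Rpl7l1, a paralogue of Rpl7, had 36.9 CPM per kb and 43.7 to 52.1 CPM over the 8 livers. Rpl22l1, the paralogue of Rpl22, had 41.2 CPM per kb against 229 for Rpl22.

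**Figure D1:**
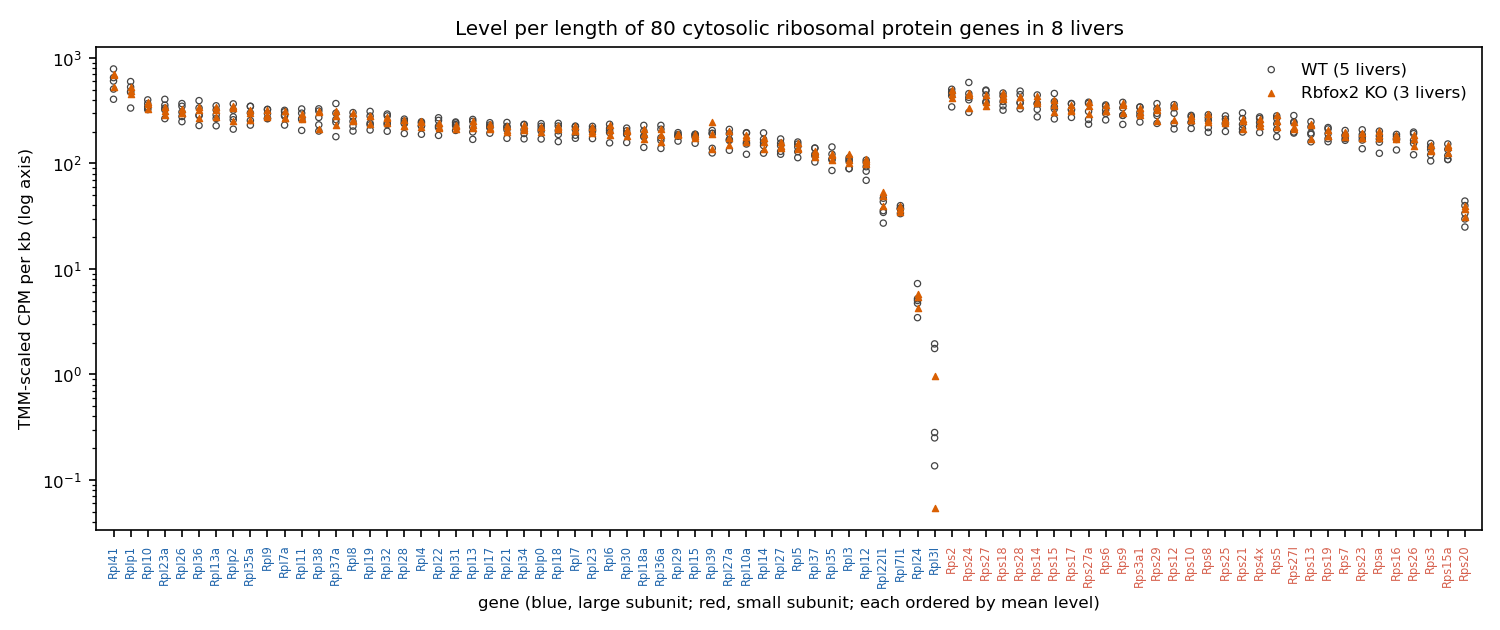
TMM-scaled CPM per kb of the shortest coding transcript (log axis) for 80 tested genes, one point per liver (open circles, 5 WT; triangles, 3 Rbfox2 KO); a liver with 0 counts is not drawn. Large subunit genes run from Rpl41 (mean 608) to Rpl3l (0.675) and small subunit genes from Rps2 (450) to Rps20 (34.9), and WT and KO points overlap in each gene drawn.

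Whether loss of Rbfox2 from hepatocytes altered these transcripts was asked for each member in a fit over all tested genes. By the edgeR quasi-likelihood test, 0 of 81 members passed an adjusted p of 0.05, where 0% of all tested genes did. At an unadjusted p under 0.05 there were also 0 of 81, against 4.74% of all tested genes, and no member had groups that did not overlap in CPM, against 3.71%. DESeq2 called 0 members and 0.403% of all genes. The smallest unadjusted p of a member was 0.069, for Rpl22l1, and every member had an adjusted p of 0.99997.

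The differences were small. Log2 fold changes of KO over WT had a median of 0.034, beside 0.000953 over all tested genes, and the quartiles of the members were 0.0038 and 0.0814. Within 0.2 of 0 lay 78 of 81 members (96.3%) and 70.5% of all tested genes. The median standard error (SE) of a member was 0.136, beside 0.168 over all tested genes. Positive values were held by 62 members and negative by 19, where 50.2% of all tested genes were positive. The members rose and fell together between livers, so these signs, and those of parts of the family below, are not separate observations. Scaled by library totals alone, 79 were positive and 2 negative, and the median of all tested genes then moved to 0.12. The median of the members relative to all genes was 0.033, and it was -0.032 without WT 5, -0.020 without KO 2 and -0.040 without the 3 livers with muscle transcripts.

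**Figure D2:**
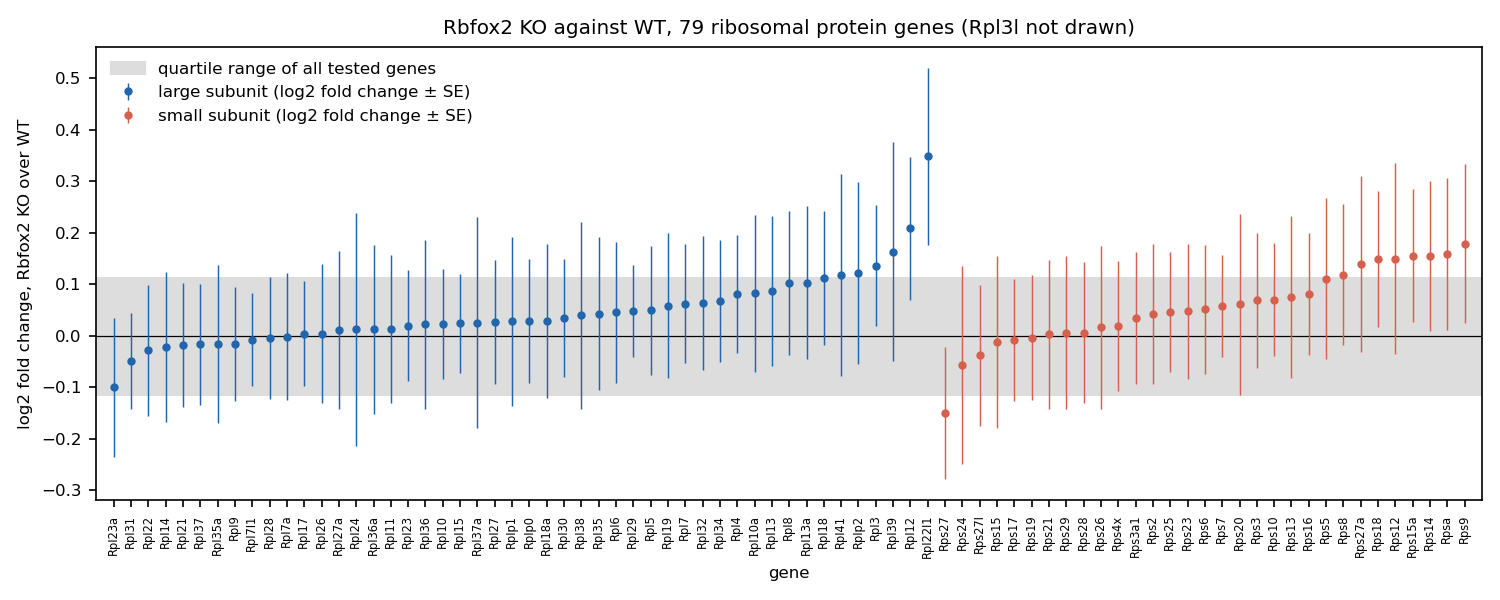
Log2 fold change of Rbfox2 KO over WT with its SE for 79 tested genes, ordered within the large (blue) and small (red) subunit; the grey band spans the quartiles of all tested genes, and Rpl3l (-1.33 ± 1.26) is not drawn. Values run from -0.15 for Rps27 to 0.35 for Rpl22l1, and 0 genes pass an adjusted p of 0.05.

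Large and small subunit genes had medians near each other. The median log2 fold change was 0.028 for 49 large subunit genes, 37 positive and 12 negative, and 0.049 for 32 small subunit genes, 25 positive and 7 negative. Large minus small, the medians differed by -0.021. This was 0.017 among the 28 members with less than 20% of their longest transcript shared with other genes, and 0.00356 without WT 1. As mean log2 CPM without Rpl3l, large minus small was -0.23, -0.21, -0.27, -0.23 and -0.25 in the WT livers, 1 to 5, and -0.24, -0.25 and -0.25 in the KO livers. It averaged -0.239 ± 0.0196 over the WT livers (SD, n = 5) and -0.248 ± 0.00665 over the KO livers (SD, n = 3), and the groups overlapped. With Rpl3l, whose level was near 0, the averages were -0.398 ± 0.0414 and -0.441 ± 0.0488.

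The functional parts of the ribosome showed the same small values. The P stalk proteins Rplp0, Rplp1 and Rplp2, which bind the elongation factors, had log2 fold changes from 0.028 to 0.12, with all 3 positive and 0 called. Rplp0, often taken as a reference gene, was at 284 ± 34.9 CPM over the WT livers (SD, n = 5) and 290 ± 15.4 CPM over the KO livers (SD, n = 3). Rpl5 and Rpl11, which hold the 5S ribosomal RNA and can bind MDM2 when free, had log2 fold changes of 0.049 and 0.013. Among 8 genes of the peptide exit tunnel 5 were positive and 3 negative. Along the mRNA path of the small subunit, 6 of 7 tested genes were positive and 1 negative. Both lists had 0 called. Of the genes mutated in Diamond-Blackfan anaemia, an inherited failure of red cell production, 13 were listed. These 13 lay between -0.056 and 0.070 on the log2 scale, and the list need not be complete.

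Rpl22l1 (ENSMUSG00000039221, chromosome 3 from 28805436 to 28807424, plus strand) had the largest positive difference. It was at 24.5, 18.7, 22.7, 18 and 14.3 CPM in WT livers 1 to 5 and at 28.2, 26.0 and 20.8 CPM in KO livers 1 to 3. KO 1 and KO 2 lay above all WT livers, and KO 3 lay among them. The log2 fold change was 0.35 ± 0.17 (SE, edgeR adjusted p = 0.99997), between 0.25 and 0.46 when each liver was left out in turn, and 0.089 without WT 4, WT 5 and KO 1, the livers with muscle transcripts, of which KO 1 held its highest level. Its paralogue Rpl22 was at 128, 103, 121, 107 and 87.2 CPM in WT and at 105, 114 and 103 CPM in KO, with a log2 fold change of -0.028 ± 0.13 (SE).

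The next largest positive values belonged to Rpl12, Rps9 and Rpl39. Rpl12, beside the stalk base, was at 127, 105, 133, 115 and 85.8 CPM in WT and at 131, 138 and 123 CPM in KO, with a log2 fold change of 0.21 ± 0.14 (SE). Rps9, a small subunit protein near the mRNA entry, had 0.18 ± 0.15 (SE), between 0.098 and 0.27 when each liver was left out in turn and 0.015 without the 3 livers with muscle transcripts. Rpl39, at the exit tunnel, had 0.16 ± 0.21 (SE), which was -0.061 without KO 2, the liver where it was highest, at 151 CPM. Rpl3, at the peptidyl transferase centre, and Rps15a, a small subunit protein, had the other small p values of their subunits, with log2 fold changes of 0.14 ± 0.12 and 0.15 ± 0.13 (SE). Without the same 3 livers, Rpl12 and Rpl39 were both at 0.10, Rpl3 at 0.14 and Rps15a at 0.055, while Rps27, Rpl23a, Rps24 and Rps27l were at -0.25, -0.22, -0.28 and -0.077.

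On the negative side, Rps27, a zinc-finger protein of the small subunit, was at 168, 153, 171, 133 and 130 CPM in WT and at 132, 154 and 122 CPM in KO. Only KO 3 lay below all WT livers, and the log2 fold change was -0.15 ± 0.13 (SE). Of its shortest transcript 98.4% is shared with other genes. Its paralogue Rps27l, a target of p53 with 0% shared, was at 121, 98.8, 142, 123 and 96.6 CPM in WT and at 111, 123 and 105 CPM in KO, with -0.038 ± 0.14 (SE). Rpl23a, at the mouth of the exit tunnel, had -0.10 ± 0.14 and Rps24 -0.056 ± 0.19 (SE). With library totals as the scaling, Rps27l, Rpl23a and Rps24 became positive, at 0.092, 0.026 and 0.084.

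Between livers of the same group the members rose and fell together. For each liver, the median over the 81 members of log2 CPM minus the member's own mean of 8 livers was taken, here called the median deviation. It was 0.21, -0.11, 0.14, -0.015 and -0.33 in the WT livers, 1 to 5, and 0.014, 0.14 and -0.067 in the KO livers. WT 1 and WT 5 were thus the extremes, and the 3 KO livers lay between them. WT livers averaged -0.019 ± 0.21 (SD, n = 5) and KO livers 0.029 ± 0.10 (SD, n = 3). In WT 1, 78 of 81 members were above their own mean, in WT 3, 79, and in KO 2, 80. In WT 5 only 1 was, in WT 2, 10, and in KO 3, 20.

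Leaving Rpl3l aside, the ratio of WT 1 over WT 5 had a median of 1.48 over 80 members, and its highest values were 2.10 for Rpl24 and 2.06 for Rpl37a. These livers were chosen for this difference, so the ratios are a description. With library totals as the scaling, KO 1 became the highest liver, at 0.38, and WT 5 was at -0.15, beside -0.15 in WT 3 and KO 3. The order of the livers thus depended on the scaling.

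**Figure D3:**
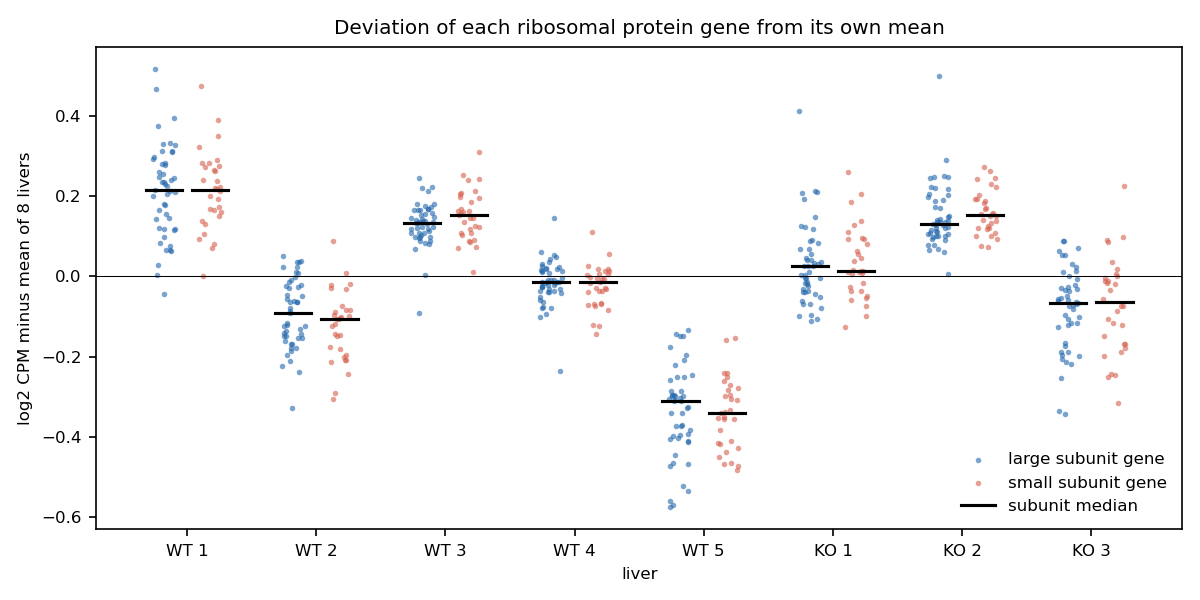
Log2 CPM minus the gene's mean of 8 livers, for 48 large (blue) and 31 small (red) subunit genes in each liver, without Rpl3l; black bars are the medians of the tested genes of each subunit. Points of both subunits sit mostly above 0 in WT 1, WT 3 and Rbfox2 KO 2 and below 0 in WT 2, WT 5 and Rbfox2 KO 3.

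The subunits tracked each other closely. The median deviation of the large subunit was 0.21, -0.092, 0.13, -0.015 and -0.31 in WT and 0.027, 0.13 and -0.067 in KO. That of the small subunit was 0.22, -0.11, 0.15, -0.015 and -0.34 in WT and 0.014, 0.15 and -0.064 in KO. Across the 8 livers, which share the scaling factor of each library, Pearson's r was 0.998 and Spearman's rho 1, with r = 0.996 without the 2 livers farthest from the median and 0.998 with group means removed. Large minus small was between -0.023 and 0.029 in every liver.

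Gene by gene, a member's log2 CPM was correlated across the 8 livers with the mean of the other members. The median r was 0.937 over 81 members and 0.946 with group means removed. It was 0.949 with library totals as the scaling, between 0.90 and 0.957 when each liver was left out in turn, and 0.939 without the 3 livers with muscle transcripts. Without Rpl3l, 59 of 80 members had r above 0.9, while 2.72% of 14573 other tested genes had r above 0.9 with the members' mean. The first principal component of the 80 members held 86.3% of their variance. Mitochondrial ribosomal protein genes, each set against the mean of the others, came near this. Over 81 of them the median r was 0.904, 44 had r above 0.9, and the first component held 73.6%.

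Rps4x, Rps20 and Rps26 followed the family most closely, with r of 0.995, 0.993 and 0.991. Rps4x (ENSMUSG00000031320, chromosome X from 102184941 to 102189394, minus strand), a protein of the small subunit body, was at 268, 218, 260, 238 and 191 CPM in WT and at 237, 255 and 221 CPM in KO. It was highest in WT 1 and WT 3 and lowest in WT 5. The median r was 0.926 over 29 tested genes with a run of C and at least 4 C or T, and 0.946 over 32 with a window but no such run. Across 80 members, Spearman's rho of r with transcript length was -0.056 and with the share of sequence held by other genes -0.19.

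Among the lowest r values were those of Rpl3l and Rpl10. Rpl10, which joins the large subunit late in its assembly, had r = 0.507 and was at 275, 266, 319, 294 and 258 CPM in WT and at 262, 304 and 294 CPM in KO, and so was higher in WT 3 than in WT 1. Of its transcript 91.6% is shared with 10 other genes. Rps7, Rpl7l1, Rps27 and Rpl31 had r from 0.633 to 0.688.

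Rpl3l stood apart from the family. It had 7, 9, 4, 52 and 68 counts in WT livers 1 to 5 and 32, 0 and 2 counts in KO livers 1 to 3, or 0.259, 0.291, 0.141, 1.82 and 2.01 CPM in WT and 1.004, 0 and 0.0559 CPM in KO. It was high in the 3 livers where the summed muscle markers were high. Across the 8 livers, with 1 added to each CPM before taking log2, it followed that sum with r = 0.935 and rho = 0.976. Without the 2 livers farthest from the median r was 0.923. Its log2 fold change of -1.33 ± 1.26 (SE) rests on few counts, most of them in WT 4, WT 5 and KO 1, with 0 in KO 2. It was -1.36 by DESeq2 and -2.25 by limma-voom. The gene passed the filter in 6 of 8 runs without a liver. There the log2 fold change ran from -4.66 without KO 1 to -0.80 without KO 2. The r of Rpl3l with the other members, on the log2 CPM used for the family, was -0.552.

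**Figure D4:**
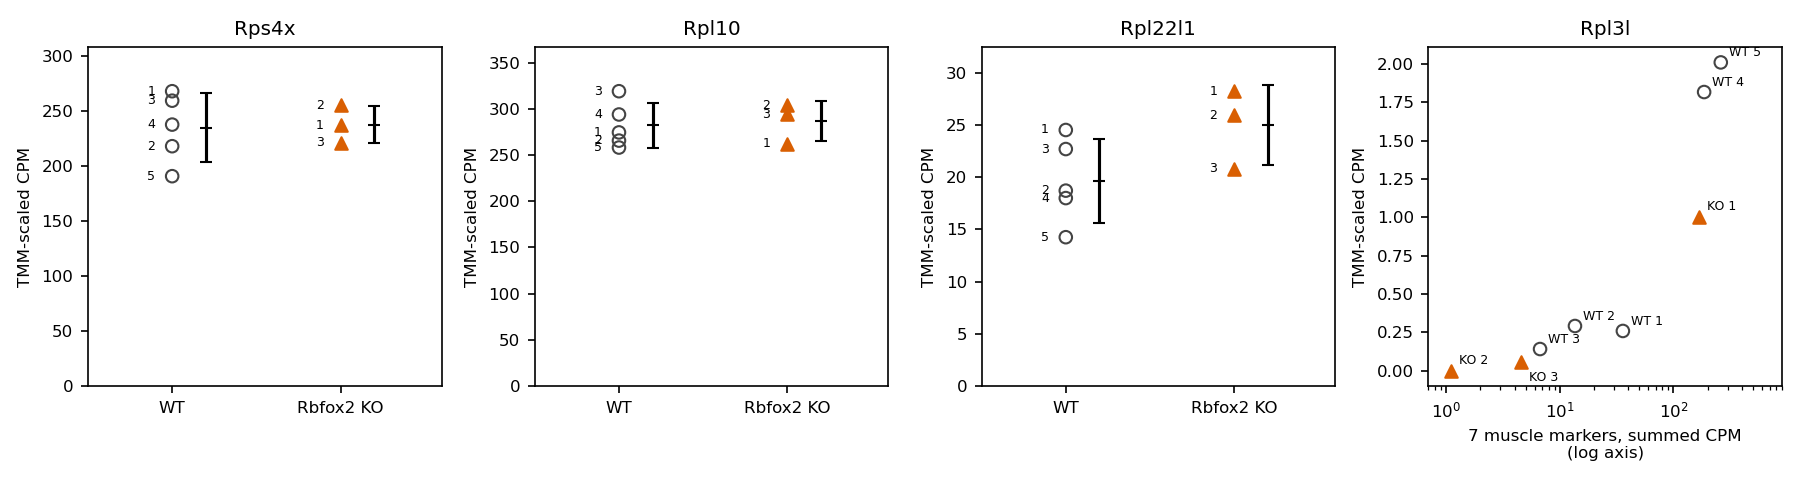
TMM-scaled CPM of Rps4x, Rpl10 and Rpl22l1 in each liver (open circles, WT 1 to 5; triangles, Rbfox2 KO 1 to 3; bars, mean ± SD), and Rpl3l against the summed CPM of 7 skeletal muscle markers (log axis). Rps4x spreads from 191 in WT 5 to 268 in WT 1, Rpl10 lies between 258 in WT 5 and 319 in WT 3, Rpl22l1 overlaps between groups, and Rpl3l is above 1 CPM only where the muscle sum is above 100.

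Rpl10l and Rpl39l were at or near 0 counts. Rpl10l, used in male germ cells, had 0 counts in every liver, which allows up to 0.0839 to 0.118 CPM at 3 counts per library, for counting error only. Rpl39l, known from testis, had 0 counts in all 5 WT livers and 3, 1 and 1 counts in KO, all at or under that floor. The list of paralogues also held Rps3a2, Rps3a3 and Rps4l, which the annotation types as pseudogenes and which were not at 0 (Rps3a2 was at 23.9 to 35.8 CPM). Of its 7 tested genes 3 had positive and 4 negative log2 fold changes, with 0 called.

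Other ribosomal protein genes, genes of the same mRNA class, assembly factors and control genes were set beside the members. Fau, Rack1 and Rpl36al encode ribosomal proteins outside the naming rule, and their median deviation followed that of the members with r = 0.970 across the 8 livers (0.912 without the 2 farthest). A list of 20 translation factors and other genes, such as Npm1 and Hnrnpa1, held mRNAs that are also of the oligopyrimidine class. Its median deviation ran from -0.20 in WT 5 to 0.14 in WT 1 with r = 0.991 (0.966 without the 2 farthest). Of its genes 10 had positive and 10 negative log2 fold changes. Taken singly, 11 of the 20 had r above 0.8 with the members' mean and 3 had r below 0, namely Eif4b, Eef2 and Eef1a1. For 55 assembly factors, which build ribosomes in the nucleolus, r was 0.809 but 0.419 without the 2 farthest. For 16 genes of mTORC1, LARP1 and MYC control, r was -0.443 and -0.013 without the 2 farthest. Single genes of this list went both ways. Rheb, Larp1 and Eif4ebp1 had r above 0.8 with the members' mean, while 11 had r below 0, the lowest -0.961 for Tsc1. In these 3 lists 0 genes passed an edgeR adjusted p of 0.05, 0 had an unadjusted p under 0.05 and DESeq2 called 0.

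The shared rise and fall reached beyond the cytosolic ribosome. Mitochondrial ribosomal proteins, 81 genes that build a separate ribosome for mitochondrial mRNAs, had median deviations of 0.30, -0.039, 0.12, -0.043 and -0.28 in WT and 0.062, 0.11 and -0.19 in KO, with r = 0.929 to the members (0.825 without the 2 farthest). Of these genes 26 had positive and 55 negative log2 fold changes, with a median of -0.041. The 1192 other tested genes whose transcripts are at most 1000 bases had median deviations of 0.22, -0.046, 0.061, -0.020 and -0.23 in WT and 0.096, 0.048 and -0.13 in KO, with r = 0.909 (0.708 without the 2 farthest). Members minus these short transcripts ran from -0.10 in WT 5 to 0.091 in KO 2, a narrower span than that of the members alone. The part of transcript length or RNA quality in the shared deviation was not tested; the study kept RNA with an integrity number above 8.

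**Figure D5:**
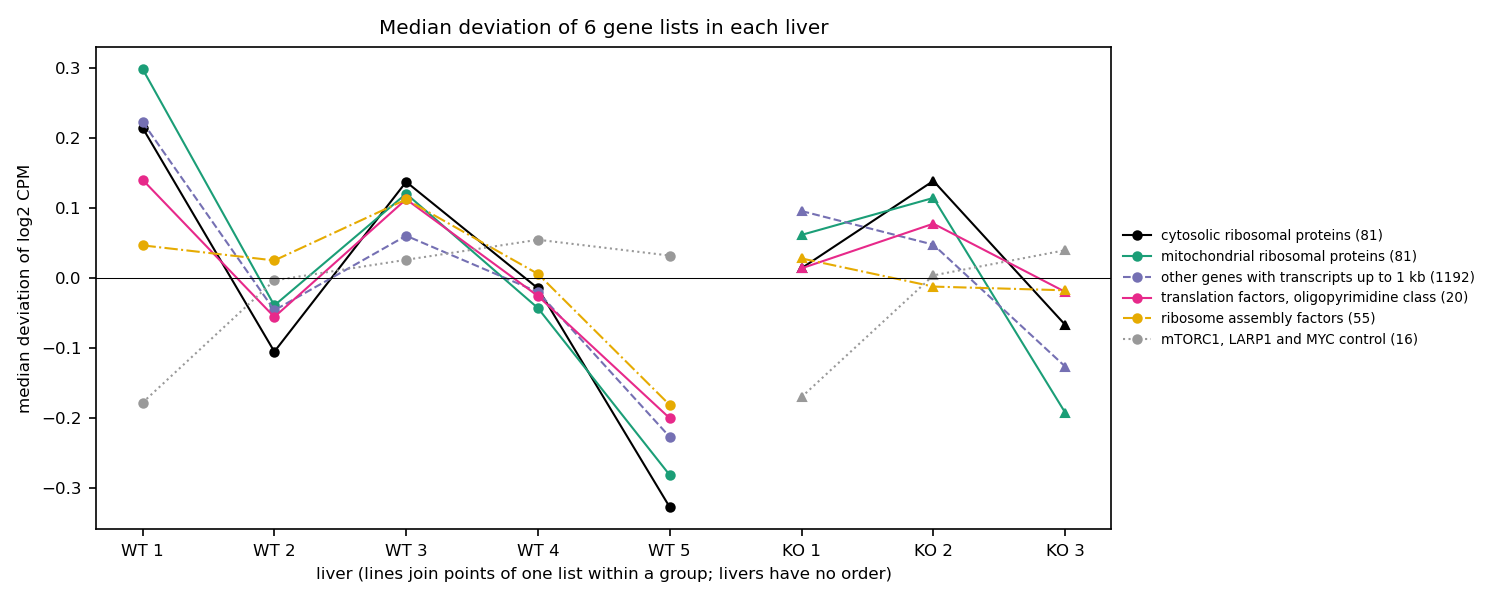
Median deviation of log2 CPM from each gene's mean of 8 livers, for 6 gene lists in each liver; lines only join points of a list within a group. Cytosolic and mitochondrial ribosomal proteins, other short transcripts and the list of translation factors and other oligopyrimidine genes are highest in WT 1 and lowest in WT 5. The mTORC1, LARP1 and MYC list is lowest in WT 1.

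Markers of other cells were set beside the same deviation. Summed sinusoidal endothelial markers were at 114 to 128 CPM in WT and 110 to 127 in KO, with r = -0.678 to the members' median deviation across 8 livers and -0.321 without WT 5 and WT 1, the livers farthest from the median of that deviation. Lymphocyte markers summed to 2.39 to 12.6 CPM in WT and 2.44 to 3.73 in KO (r = -0.691, and -0.688 without those 2), and were highest in WT 2 and WT 5, both low in ribosomal protein transcripts. Kupffer cell markers summed to 177 to 202 CPM in WT and 189 to 253 in KO (r = -0.192, and -0.258 without those 2), and hepatocyte markers had r = 0.224, which became -0.084. Stellate cell, cholangiocyte, erythroid, acinar and muscle sums had r of -0.410, 0.632, 0.361, 0.170 and -0.471, and of -0.135, -0.340, 0.034, 0.011 and -0.338 without WT 5 and WT 1. The sign for hepatocyte and cholangiocyte markers thus rested on those livers. None of these lists had a marker at 0 in all livers, and their part in the deviation was not tested. Taken singly, 4 of 5 sinusoidal endothelial markers had r below 0 with the members' mean, while Clec4g had 0.470. Of 6 hepatocyte markers, 3 had r below 0, the lowest -0.810 for Hnf4a.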

How the data were processed

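Poly(A)-selected, 100-bp paired-end RNA-seq was carried out on livers of 5 WT and 3 Rbfox2 KO mice. The authors deposited a table of unnormalized counts by Ensembl ID, made by aligning reads to GRCm38 with TopHat2 2.0.11 and counting with featureCounts; the use of strand and of reads with several alignments in counting is not given in the sources used here. Groups came from the labels. Of 46078 genes, 45229 were named from GENCODE M21.

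Counts were filtered with filterByExpr, scaled by TMM and tested over all genes with the robust quasi-likelihood test of edgeR 4.0.16 (R 4.3.3), genotype as the only term, Benjamini-Hochberg adjustment at 0.05. The SE is the log2 fold change over the square root of F. Log2 CPM used a prior count of 2. DESeq2 1.42.0, limma-voom 3.58.1, other scalings and filters, each liver left out and 3 livers left out together were alternatives. The last, the runs without Rpl3l, and the limit on the shortest transcript were chosen after seeing the data. Named members were the extremes of level, fold change, p, spread and correlation, and the stalk, 5S and paralogue genes. The members and lists were chosen with earlier results of these data known. No pair of livers agreed within sampling noise (chi-square per degree of freedom 41.8 to 318). The labels do not say which mice shared a litter or batch, and p-values measure the spread between these livers. The procedure was also run on simulated counts, and the outcome is not given here. Shared sequence was counted in words of 100 bases. Counting floors (3 counts) cover counting error only. The values of some genes are not reported here on their own.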

Additional observations from a re-analysis of the deposited data

Results flagged for a closer look

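Of 47 quantities checked in the 5 WT livers, 3 had a liver far from the rest (gap over range above 0.71), where chance gives about 1 in 20. WT 1 had the highest share of counts in ribosomal protein genes, 1.58% against 1.24 to 1.31% in the other 4, a ratio of 0.780; with Mup genes left out of the totals WT 1 (1.92%) was level with WT 3 (1.93%). WT 1 also had the highest pancreatic acinar marker sum among the WT livers, 16.8 CPM against 4.78 to 5.29, a ratio of 0.958. WT 5, lowest in ribosomal protein transcripts, had the highest sinusoidal endothelial marker sum, 128 CPM against 114 to 117, a ratio of 0.757. The markers of that sum did not all agree, since Clec4g was lowest among the WT livers in WT 5 (40.8 CPM against 42.8 to 45.9). The causes were not tested.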

How the results depend on the processing

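The count of ribosomal protein genes past the threshold was 0 under every alternative run, and their median relative to all genes stayed between -0.0508 and 0.0881. The count over all genes was 6 with no filter and 59 by the DESeq2 Wald test, which also called Rbfox2 (log2 fold change -1.03, adjusted p = 0.0019); it was 0 with each liver left out, when Rbfox2 ran from -1.30 to -0.85. Groups did not overlap for 1 member with no filter (Rpl39l, 0 against 1 to 3 counts), where 2.95% of all genes did not, and for 0 to 1 with each liver left out (Rps14 without WT 1, Rpl3l without Rbfox2 KO 1, Rpl22l1 without Rbfox2 KO 3), where 6.73 to 9.55% of all genes did not; without the 3 livers with muscle transcripts it was 1 (Rpl31), where 19.7% did not. The large minus small median was 0.0166 for members with under 20% of the longest transcript shared, 0.0599 for 16 members by the shortest, -0.0502 without those 3 livers, and -0.0379 to 0.00356 with each liver left out. The share of counts differed by 0.0236 to 0.294 points with each liver left out and by -0.0124 without those 3. The median correlation stayed between 0.90 and 0.957. Of 194 values of single members 8 changed sign: with library totals Rpl23a (0.0256), Rps24 (0.0841) and Rps27l (0.0921), and on leaving out a liver Rps24 (0.0699 without WT 1, 0.0742 without Rbfox2 KO 3, range -0.16 to 0.0742), Rps27l (0.0421 without WT 3, 0.0116 without Rbfox2 KO 3, range -0.103 to 0.0421) and Rpl39 (-0.0614 without Rbfox2 KO 2, range -0.0614 to 0.353). Equal sample numbers did not pair the livers (correlations 0.163, 0.0484 and 0.170, 1 of them under 0.1), and 1 of the 3 KO livers correlated best with its own number: the replicate block gave 0 calls, a median of -0.0508, a large minus small of -0.00649 Rbfox2 at -0.96, Rpl22l1 at 0.183, Rps9 at 0.0475 and Rpl3l at -0.0324. The cause of these changes was not tested. With a median SE of 0.136, differences in a member of the size seen here were not detectable.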
